A study of Mus musculus with 22 samples.

Results

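Of 74217 accessible regions called in splenic dendritic cells (DCs) of the mouse, 398 measured 2000 bp or more from start to end, 0.536% of the peaks. These broad peaks were chosen by width alone. The width came from peak calling on the reads of all subsets together, so width, read number and number of summits are given as descriptions with no test, and the other 73819 peaks, all under 2000 bp, are given beside them. Accessibility was measured by ATAC-seq, in which the Tn5 transposase cuts and tags DNA that is not wrapped in nucleosomes, in 6 libraries: 2 of T-bet+ cDC2s, 2 of T-bet- cDC2s and 2 of cDC1s. Every subset, cDC1s included, was sorted from spleens of *Tbx21*RFP-cre mice, an allele that places a red fluorescent protein (RFP) and Cre recombinase at the gene for T-bet. These mice carried the knock-in on both chromosomes and were 6 to 10 weeks old. RFP+ and RFP- cDC2s were taken as T-bet+ and T-bet-, and 50000 cells went into each ATAC-seq library. Whether mice were pooled for ATAC-seq, and how many, is not given in the sources used here. Spleen RNA-seq of the same 3 subsets, with 3 libraries each and 2 mice pooled for each, was used to read the genes at the broad peaks. The comparisons ask where the broad peaks lie, and how far their accessibility differs between the cDC2 subsets and between each cDC2 subset and cDC1s.

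Conventional DCs take up antigen and present it to T cells. cDC1s are known for cross-presentation to CD8+ T cells and cDC2s for presentation to CD4+ T cells, and T-bet is a transcription factor of type 1 immunity. Promoters of many genes lie in CpG islands, stretches of DNA rich in the dinucleotide CpG that stay free of DNA methylation and open in most cell types, whereas enhancers are shorter, lie in introns or between genes and are open in fewer cell types. A wide ATAC-seq peak holds several sites of high read density, its summits, that lie so close that the caller joins them.

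The sequences that follow are summit windows of 150 bases, the unit in which reads were also counted, from the peaks that the results turn on. They are read from RefSeq GRCm38.p6, the same assembly as mm10 in the files, on the + strand, and capitals mark matches to motif consensus sequences on either strand. In the widest peak, at *Smarca2*, the window of most reads (chr19:26604996-26605145) holds an Ets consensus on the - strand and a GC box.
Smarca2: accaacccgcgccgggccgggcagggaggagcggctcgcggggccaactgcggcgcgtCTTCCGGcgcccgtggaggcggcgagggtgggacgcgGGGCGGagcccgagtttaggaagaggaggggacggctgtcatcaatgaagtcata
Among peaks that differ between cDC2 subsets, the windows of most reads at *Ptpn3* (chr4:57301809-57301958) and near *Tnfsf4* (chr1:161375322-161375471) are shown because these peaks had the largest differences, and neither holds any of the 12 motifs searched. The window at *Sgms1* (chr19:32388466-32388615), from the peak with the largest difference in the other direction, holds a GC box.
Ptpn3: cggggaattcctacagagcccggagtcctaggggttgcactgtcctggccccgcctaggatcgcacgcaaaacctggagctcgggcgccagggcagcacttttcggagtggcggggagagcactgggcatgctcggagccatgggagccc
Tnfsf4: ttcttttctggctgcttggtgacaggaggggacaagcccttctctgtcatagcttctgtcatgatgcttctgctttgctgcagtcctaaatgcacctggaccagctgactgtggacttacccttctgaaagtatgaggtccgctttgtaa
Sgms1: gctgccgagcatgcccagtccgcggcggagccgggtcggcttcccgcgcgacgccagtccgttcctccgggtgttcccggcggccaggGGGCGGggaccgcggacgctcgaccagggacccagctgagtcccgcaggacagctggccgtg
Of the peaks that differ from cDC1s, the window of most reads in the *Ston2* intron (chr12:91766410-91766559) holds a Runx consensus, and that at the *Plpp1* promoter (chr13:112800687-112800836) holds an NF-Y consensus on the - strand and 2 GC boxes.
Ston2: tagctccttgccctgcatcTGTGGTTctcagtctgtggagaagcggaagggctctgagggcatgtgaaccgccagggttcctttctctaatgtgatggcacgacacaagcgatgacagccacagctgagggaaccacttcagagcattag
Plpp1: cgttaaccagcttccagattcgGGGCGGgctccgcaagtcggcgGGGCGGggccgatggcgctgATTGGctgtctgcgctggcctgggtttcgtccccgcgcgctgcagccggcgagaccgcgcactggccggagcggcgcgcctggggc
The last pair comes from a single peak in the *Galnt7* intron whose windows differed from cDC1s in opposite directions. The window higher in T-bet+ cDC2s (chr8:57576307-57576456) holds an AP-1 consensus, and the window lower there (chr8:57577833-57577982) holds none of the motifs.
Galnt7 higher: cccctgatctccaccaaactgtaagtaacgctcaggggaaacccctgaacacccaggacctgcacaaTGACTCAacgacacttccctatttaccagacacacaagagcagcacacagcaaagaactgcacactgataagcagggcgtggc
Galnt7 lower: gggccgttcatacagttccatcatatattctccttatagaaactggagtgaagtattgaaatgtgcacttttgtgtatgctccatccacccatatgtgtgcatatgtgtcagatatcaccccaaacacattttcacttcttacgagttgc

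The ATAC-seq libraries held 9335612 to 12803133 reads in peaks. The rank correlation of a peak's relative read number with its GC content ranged from -0.149 to 0.16 over libraries and was below 0 only in the 2 cDC1 libraries. RNA of *Tbx21*, which checks the sort, was 545, 587 and 407 normalised reads in T-bet+ and 7, 36 and 56 in T-bet- cDC2s, with 21, 29 and 3 in cDC1s. The 7 cDC1 markers summed to 3892 to 4875 TPM (transcript reads per kb, scaled to a fixed total) in cDC1s and to at most 159 in cDC2s. The 6 B cell markers summed to 149 to 199 TPM in T-bet- cDC2s, 54.6 to 75.9 in T-bet+ cDC2s and 24 to 41.5 in cDC1s, with *Pax5* near 0. The 5 T cell markers summed to 19.9 to 27.7 TPM in T-bet+ cDC2s and to at most 6.76 in the other subsets, with *Cd3g* near 0, and the 6 monocyte and macrophage markers to 329 to 607 TPM in cDC2s and 46.0 to 81.8 in cDC1s. The RNA libraries were of 2 kinds by the rank correlation of a gene's relative read number with GC content. GC content was here that of the most GC-rich stretch of the gene's longest transcript. The correlation was -0.457 to -0.302 in T-bet- replicates 1 and 2 and cDC1 replicate 3 and 0.19 to 0.325 in the other 6. The part of RNA of these other cell types, of library GC content and of the kind of RNA library in the results below was not tested, except where a fit with GC content or library kind is given.

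The broad peaks were mostly promoters. Of the 398, 360 (90.5%) lay within 2000 bases of a transcript start, against 23.6% of narrower peaks, 16 lay in introns, 16 between genes and 6 in exons. The narrower peaks most like them were mostly promoters too. The share was 78.5% in narrower peaks of at least 1500 bp. It was 93.9% in the 1077 narrower peaks with at least as many reads as the median broad peak. A transcript start lay inside 357 broad peaks, and 119 of them held the starts of more than 1 gene. Their median width was 2172 bp, against 456 bp for narrower peaks, the widest reached 3578 bp, and they held 5 to 16 summits with a median of 9. Together they covered 2.14% of peak bases and held 5.59% of reads in peaks. Broad peaks were found on every chromosome but Y, with 10 to 36 on each.

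Their sequence was that of CpG islands in most cases. Median GC content was 60.4% in broad and 47.4% in narrower peaks, and the median ratio of observed to expected CpG was 0.698 against 0.200. By a GC content of at least 55% and a ratio of at least 0.6, 251 broad peaks (63.1%) were CpG-island-like, against 5.28% of narrower peaks. Narrower peaks with many reads shared this feature. Of the 1077 narrower peaks with at least as many reads as the median broad peak, 71.4% were CpG-island-like, and their median GC content was 59.3%. The 38 broad peaks away from promoters differed from the rest, with a median GC content of 50.2%, a median CpG ratio of 0.246 and 2 CpG-island-like members.

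The 10 widest peaks measured 2853 to 3578 bp. The widest, at *Smarca2* (3578 bp), lies at the start of a gene for an ATPase of the SWI/SNF remodelling complex, and *Arid1b* (2912 bp) encodes another subunit of that complex. *Kdm6b* (2908 bp), which encodes a demethylase of histone H3 lysine 27, was the only one of the 10 in an exon and not at a promoter. *Bcor* (2853 bp) encodes a BCL6 corepressor, *Ing2* (2961 bp) a reader of histone H3 methylation, *Tfap4* (3024 bp) a helix-loop-helix transcription factor and *Tsc22d2* (3120 bp) a member of the TSC22 family. *Irs2* (2975 bp) encodes an insulin receptor substrate, *Crlf2* (2916 bp) the receptor for thymic stromal lymphopoietin and *Epha7* (3202 bp) an ephrin receptor. Normalised to library size and composition, the *Smarca2* peak held 4614.5 and 3871 reads in T-bet- and 4162 and 4716 in T-bet+ cDC2s, with 3616 and 3429 in cDC1s. The cDC2 libraries of the 2 subsets overlapped at this peak and both lay above cDC1s, and it was not called in any comparison. At the cut-off, the 5 narrowest broad peaks (*Mid1ip1*, *Zfp800*, *Ubtf*, *Fgfr3* and *Naf1*) were 2000 to 2003 bp wide with 104 to 430.3 normalised reads per kb, and the 5 widest under it (*Orai2*, *Gga1*, *App*, *Gm9887* and *Akap10*) were 1994 to 1998 bp wide with 420.1 to 795 reads per kb.

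Of the 12 consensus motifs searched, 4 were in a larger share of broad than of narrower windows and 8 in a smaller share. The windows had a median GC content of 60% in broad and 48.7% in narrower peaks. The part of base composition in the shares below was not tested. The GC box (GGGCGG), bound by Sp and Klf factors, was in 31.7% of 3462 summit windows of broad peaks, 8.06% of 174494 windows of narrower peaks and 19.1% of windows of narrower promoter peaks. The Ets consensus CCGGAAG was in 3.41% of broad and 1.66% of narrower windows, the cyclic AMP response element TGACGTCA in 0.578% and 0.327%, and the E-box CACGTG in 3.52% and 2.86%. In narrower promoter peaks these 3 were in 3.41%, 0.589% and 3.72% of windows. Those in a smaller share included motifs of factors of myeloid and lymphoid cells. PU.1 (GAGGAAGT) was in 2.43% against 5.56%, Runx (TGTGGTT) in 2.80% against 5.28%, AP-1 (TGANTCA) in 4.16% against 7.98% and the interferon response sequence GAAANNGAA in 3.96% against 5.64%. Narrower promoter peaks lay between, at 3.93%, 3.86%, 5.65% and 4.70%. The T-box consensus TCACACCT, which T-bet recognises, was in 13 broad windows (0.376%), against 0.721% of narrower ones and 0.618% of those of narrower promoter peaks. The remaining consensus sequences, for C/EBP (TTGCNNAA), RORE (TAGGTCA) and NF-Y (CCAAT), were in 4.07%, 0.722% and 14.3% of broad windows in 5.93%, 1.59% and 17.5% of narrower ones and in 4.95%, 1.27% and 16.4% of those of narrower promoter peaks. Both strands were searched, windows of neighbouring summits can overlap, and a match says only that these letters are present.

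**Figure D1:**
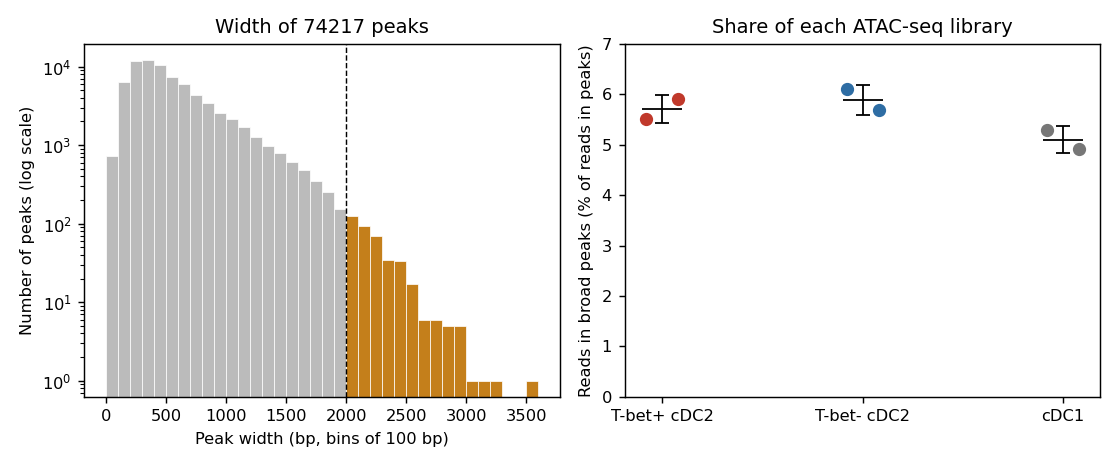
Left, number of peaks (log scale) by width in bins of 100 bp, with the 398 broad peaks in orange to the right of the dashed line at 2000 bp. Right, percent of reads in peaks that fell in broad peaks in each ATAC-seq library (points), with the mean and SD of the 2 libraries of each subset: the cDC1 libraries, at 5.29% and 4.91%, lie below the 4 cDC2 libraries.

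Broad peaks took a similar share of reads in all libraries. It was 6.10% and 5.68% in T-bet- cDC2s (5.89% ± 0.295, SD, n = 2), 5.51% and 5.90% in T-bet+ cDC2s (5.71% ± 0.273) and 5.29% and 4.91% in cDC1s (5.10% ± 0.267). The cDC2 subsets overlapped and the cDC1 libraries were the 2 lowest. No test was made, because the width was set on these reads and because the smallest two-sided p that an exact permutation test allows with 2 against 2 libraries is 0.333. The median broad peak held 565 to 609 normalised reads per kb in cDC2 libraries and 460 and 467 in cDC1 libraries, while the median narrower peak held 117 to 119 and 133 and 136.

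Between the cDC2 subsets few broad peaks differed, and those that did were spread over both directions. A peak was called where the quasi-likelihood test of edgeR gave an adjusted p below 0.01 and the log2 fold change was beyond 0.5 in either direction. This called 21 of 398 (5.28%), where 12.9% of all peaks tested were called. All 398 broad peaks passed the filter on low counts. Higher in T-bet+ cDC2s were 10 (7.26% of all peaks), and 11 were lower (5.69% of all peaks). Among narrower peaks with as many reads as the median broad peak, 2.69% were called. The median log2 fold change was 0.00 in broad peaks and -0.02 in narrower peaks, and 2 broad peaks (0.503%) moved by more than 1 on the log2 scale, against 9.36% of narrower peaks. Of the narrower peaks with as many reads as the median broad peak, 0.279% moved by more than 1. Scaled by library size only, 9 were higher and 17 lower, and without T-bet- replicate 1, 8 were higher and 4 lower. In sorted bulk cells, a change in each cell and a change in the share of cells with an open site cannot be told apart.

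*Ptpn3*, which encodes a protein tyrosine phosphatase of the non-receptor type, had the largest difference. Its promoter peak (chr4:57299472-57302145) held 1094 and 940.2 normalised reads in T-bet- and 2296 and 2546 in T-bet+ cDC2s, with 1269 and 1294 in cDC1s. Both T-bet+ libraries lay above the other 4, and the log2 fold change was 1.25 ± 0.14 (SE) with an adjusted p of 2e-11. Next came a peak between genes (chr1:161375166-161377237), 18172 bp from *Tnfsf4*, the gene for OX40 ligand, which gives T cells a costimulatory signal. It held 779 and 731 reads in T-bet- and 1616 and 1734 in T-bet+ cDC2s, with 573 and 605 in cDC1s, a log2 fold change of 1.15 ± 0.14 (adjusted p = 5e-10). Here too the T-bet+ libraries stood above the other 4. The *Tmem132c* intron peak (chr5:127321353-127323449), in a gene for a transmembrane protein, held 598 and 633 reads in T-bet- and 877 and 1150.0 in T-bet+ cDC2s, with 268 and 229 in cDC1s, so that the 3 subsets were ranked with no overlap. It differed by 0.72 ± 0.15 on the log2 scale between T-bet+ and T-bet- libraries (adjusted p = 0.0001), and the call was lost without T-bet+ replicate 2, where the log2 fold change was 0.51. The promoter peaks of *Fgf2* (fibroblast growth factor), *Zeb1* (a zinc finger transcription factor of epithelial-mesenchymal transition) and *Six5* (a homeobox factor) rose by 0.93, 0.83 and 0.72 on the log2 scale in T-bet+ cDC2s. The *Zeb1* peak, for example, held 1836 and 2061 reads in T-bet+ libraries and 999.8 to 1344 in the other 4. The *Six5* call was lost without T-bet- replicate 2, where the log2 fold change was 0.62.

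The *Ptpn3*, *Sgms1* and *Vcan* peaks also hold the start of a second gene each (*Gm12536*, *2700046G09Rik* and *Gm4117*), so that their accessibility cannot be given to 1 gene alone. Among peaks lower in T-bet+ cDC2s, the *Sgms1* promoter (chr19:32387745-32389829) changed most. *Sgms1* encodes a sphingomyelin synthase. Its peak held 1130.1 and 1003 reads in T-bet- and 547 and 598 in T-bet+ cDC2s, with 1331 and 1091 in cDC1s, and the log2 fold change was -0.90 ± 0.14 (adjusted p = 1e-06). The T-bet+ libraries lay below all others. At *Vcan* (chr13:89739236-89741507), the gene for the matrix proteoglycan versican, T-bet- cDC2s stood apart instead, with 1549 and 1473 reads against 709 and 965 in T-bet+ cDC2s and 799 and 730.2 in cDC1s (log2 fold change -0.85 ± 0.14, adjusted p = 3e-06). The *Rbpms* promoter, of an RNA-binding protein, was also highest in T-bet- cDC2s, with a log2 fold change of -0.63 ± 0.15 between the cDC2 subsets and 1.06 between T-bet- cDC2s and cDC1s. The calls at *Rbpms*, *Kdelc1* (log2 fold change -0.65) and *Gas2l3* (-0.57) between the cDC2 subsets were lost without T-bet- replicate 1 or without T-bet+ replicate 1, with log2 fold changes between -0.41 and -0.55. The weakest of the named calls was *Tbkbp1*, a gene for a TBK1-binding adaptor, with 279.7 and 460 reads in T-bet- cDC2s and 257 and 205 in T-bet+ cDC2s (log2 fold change -0.69 ± 0.18, adjusted p = 0.0025). DESeq2 did not call it, and without T-bet- replicate 2 its log2 fold change was -0.28.

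**Figure D2:**
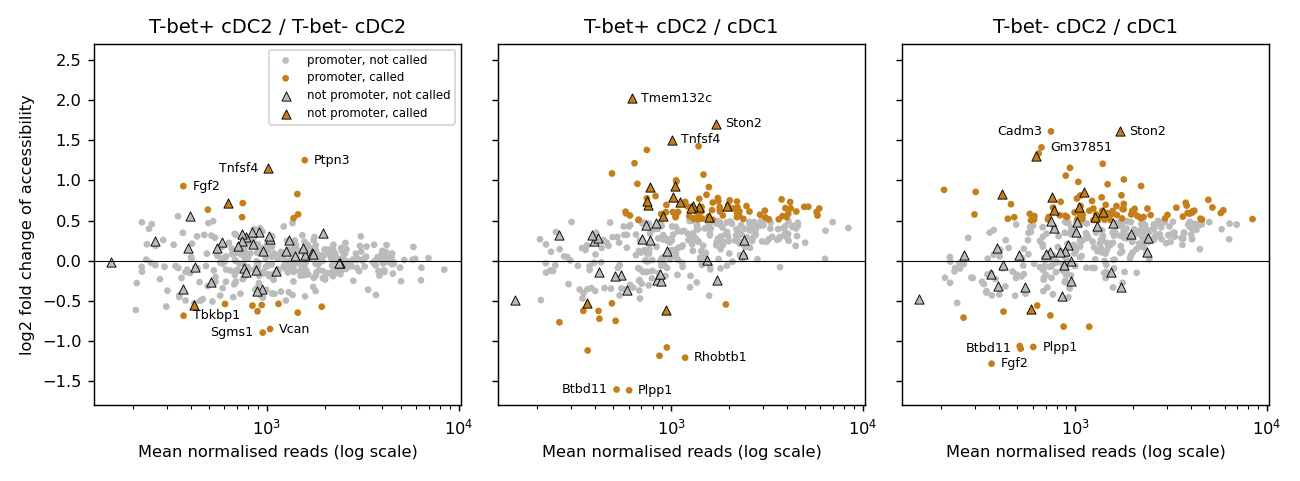
Log2 fold change of accessibility against mean normalised reads (log scale) for the 398 broad peaks in each comparison, with circles for promoter peaks, triangles for others and orange for peaks that were called. The 3 peaks called with the largest changes in each direction carry the symbol of the closest gene, and the cloud is centred on 0 between cDC2 subsets but lies above 0 against cDC1s, with medians of 0.29 and 0.31.

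Against cDC1s, broad peaks were mostly higher in cDC2s. Width was set on reads pooled over 2 libraries of each cDC2 subset and 2 of cDC1s. Most of those reads thus came from cDC2s. The narrower peaks with many reads, given below, were also chosen on these libraries. The part of this weighting in the results against cDC1s was not tested. In T-bet+ cDC2s 109 of 398 were called (27.4%, where 36.4% of all peaks were), 94 higher (16.3% of all peaks) and 15 lower (20% of all peaks). In T-bet- cDC2s 110 were called (27.6%, where 30.6% of all peaks were), 99 higher (12.7% of all peaks) and 11 lower (18% of all peaks). The median log2 fold change of broad peaks was 0.29 and 0.31 in the 2 comparisons, against 0.01 and 0.02 in narrower peaks. Narrower peaks with many reads leaned the same way. Of the 1077 narrower peaks with as many reads as the median broad peak, 37.9% were higher in T-bet+ cDC2s and 0.464% lower, and 39.4% were higher in T-bet- cDC2s and 0.279% lower. It also depended on the scaling. Scaled by library size only, 8508 of all 73293 peaks were higher and 17121 lower in T-bet+ cDC2s, and 6620 and 14882 in T-bet- cDC2s. Of the broad peaks, 35 were higher and 34 lower in T-bet+ cDC2s and 40 and 21 in T-bet- cDC2s, and their medians fell to 0.12 and 0.18. With an offset for GC content, 12529 of all peaks were higher and 13951 lower in T-bet+ cDC2s, and 9880 and 12383 in T-bet- cDC2s. Of the broad peaks, 65 were then higher and 19 lower in T-bet+ cDC2s and 76 and 13 in T-bet- cDC2s. Without cDC1 replicate 2, whose reads had the lowest correlation with GC content, 45 were higher and 13 lower in T-bet+ cDC2s and 33 and 9 in T-bet- cDC2s. Without T-bet- replicate 1, 50 were higher and 11 lower in T-bet- cDC2s. The 2 comparisons share the cDC1 libraries, and 59 broad peaks were called higher and 7 lower in both. These counts are descriptions only, with no such count over all peaks to set beside them. Large changes were few: 15 broad peaks (3.77%) differed from cDC1s by more than 1 on the log2 scale in T-bet+ cDC2s, against 28.9% of narrower peaks, while 13 (3.27%) did in T-bet- cDC2s, against 23.9%. Away from promoters, 17 of the 38 broad peaks were called in T-bet+ cDC2s (44.7%, against 25.6% at promoters) and 10 in T-bet- cDC2s (26.3%, against 27.8%). For T-bet+ cDC2s, 36.4% of all narrower peaks were called and 33.1% of narrower promoter peaks. For T-bet- cDC2s these shares were 30.6% and 28.5%. Whether the 38 peaks depart from narrower peaks away from promoters was not tested.

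The largest differences above cDC1s were in introns as well as at promoters. The *Ston2* intron peak (chr12:91765166-91767207), in the gene for the endocytic adaptor stonin 2, held 2197 and 2103 reads in T-bet- and 2188 and 2398 in T-bet+ cDC2s, with 718 and 688 in cDC1s. Its cDC2 libraries overlapped, and the log2 fold change against cDC1s was 1.71 ± 0.14 in T-bet+ (adjusted p = 4e-18) and 1.61 ± 0.14 in T-bet- cDC2s (adjusted p = 1e-16). The *Tmem132c* peak described above had a log2 fold change of 2.03 ± 0.16 for T-bet+ and of 1.31 ± 0.16 for T-bet- cDC2s, and the *Tnfsf4* peak one of 1.51 ± 0.14 in T-bet+ cDC2s. The *Cadm3* promoter (chr1:173365594-173368064), of a cell adhesion molecule of the immunoglobulin superfamily, held 1028 and 1029 reads in T-bet- and 741 and 1012 in T-bet+ cDC2s, with 323 and 351 in cDC1s (log2 fold changes 1.38 ± 0.15 and 1.61 ± 0.15 in T-bet+ and T-bet- cDC2s). The promoters of *Atrnl1*, for an attractin-like membrane protein, and *Pde4d*, for a cyclic AMP phosphodiesterase, had log2 fold changes of 1.43 and 1.21 in T-bet+ and 1.21 and 1.34 in T-bet- cDC2s, and *Gm37851*, a predicted gene, one of 1.41 in T-bet- cDC2s. Of the 10 widest peaks, the *Epha7* promoter was called in both, at 0.63 and 1.01, *Ing2* in T-bet+ cDC2s (0.56) and *Tfap4* in T-bet- cDC2s (0.58). The calls at 0.63, 0.56 and 0.58 were lost when scaled by library size only, where the log2 fold changes were 0.46, 0.39 and 0.44, and without cDC1 replicate 2, where they were 0.49, 0.42 and 0.51. Those of *Epha7* and *Ing2* were also lost without T-bet+ replicate 2 (0.45 and 0.43) and that of *Tfap4* without T-bet- replicate 1 (0.53), and those of *Ing2* and *Tfap4* with the GC offset.

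Fewer broad peaks were higher in cDC1s. The *Plpp1* promoter (chr13:112799791-112801938), of a phospholipid phosphatase, held 996 and 1017 reads in cDC1s, 510.2 and 446 in T-bet- cDC2s and 292 and 364 in T-bet+ cDC2s, which ranked the 3 subsets with no overlap. Its log2 fold change was -1.62 ± 0.15 in T-bet+ (adjusted p = 4e-15) and -1.08 ± 0.15 in T-bet- cDC2s (adjusted p = 7e-09). *Cadm1* (chr9:47529648-47531809), an adhesion molecule that marks cDC1s, held 1415 and 1187 reads in cDC1s, 759 and 714 in T-bet- cDC2s and 549.6 and 595 in T-bet+ cDC2s, with log2 fold changes of -1.19 ± 0.14 and -0.82 ± 0.14 in T-bet+ and T-bet- cDC2s. *Btbd11*, which encodes a BTB and ankyrin repeat protein, and *Rhobtb1*, which encodes an atypical GTPase with BTB domains, fell by 1.61 and 1.21 on the log2 scale in T-bet+ cDC2s and by 1.10 and 0.82 in T-bet- cDC2s. *Sgms1* and *Tbkbp1* were called lower in T-bet+ cDC2s, at -1.08 and -1.12, and not called in T-bet- cDC2s, at -0.18 and -0.43. *Itpripl1*, the gene for an inositol trisphosphate receptor-interacting protein-like protein, was called in both, at -0.75 and -1.06. The *Fgf2* promoter held 180.2 and 230.3 reads in T-bet- and 352 and 432 in T-bet+ cDC2s, with 520.0 and 483.5 in cDC1s, and was called against cDC1s in T-bet- cDC2s only (log2 fold change -1.28 ± 0.17, adjusted p = 2e-09). The T-bet+ cDC2 value against cDC1s was -0.36 ± 0.17 (adjusted p = 0.068).

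Whether a broad peak changed as 1 unit was asked by comparing each summit window with the other windows of its peak. Overlapping windows share reads, and a median window held 68.9 normalised reads in broad and 20.9 in narrower peaks. Between the cDC2 subsets 2 of 3459 windows differed from their peak (0.0578%, where 0.00370% of the windows of all peaks did), and 262 had an unadjusted p under 0.05. Both were lower in T-bet+ cDC2s and were chosen here after their values were seen. One lay at -918.5 bases from the centre of the *Rrbp1* peak, with 248 and 217 reads in T-bet- and 73 and 93 in T-bet+ cDC2s, where the next window held 230.5 and 177 against 128.5 and 199. The other lay at -1100 bases from the centre of the *Stk40* peak, with 154 and 118 reads in T-bet- and 32 and 52 in T-bet+ cDC2s. None was called without either T-bet- library or without T-bet+ replicate 1, and 1 was called without T-bet+ replicate 2.

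Against cDC1s more windows departed from their peak. In T-bet+ cDC2s 69 windows did (1.99%, where 0.422% of all windows did), 27 above and 42 below, in 51 peaks, and in T-bet- cDC2s 24 did (0.694%, where 0.138% of all windows did), 11 above and 13 below, in 22 peaks. The counts rested on single libraries. For T-bet+ cDC2s, they were 9 without cDC1 replicate 2, 13 without cDC1 replicate 1, 19 without T-bet+ replicate 1 and 42 without T-bet+ replicate 2. For T-bet- cDC2s, they were 3 and 4 without either T-bet- library and 4 without either cDC1 library. Away from promoters 7.19% of windows departed from their peak in T-bet+ cDC2s, against 1.49% at promoters. The first and last windows of a broad peak were called more often than those between them, 4.41% against 1.28% in T-bet+ cDC2s and 2.27% against 0.225% in T-bet- cDC2s, with a median of 53.5 reads in outer and 72.8 in inner windows. Tested each on its own, 101 windows (2.92%, where 6.28% of all windows were called) differed between cDC2 subsets in 63 broad peaks, 64 higher and 37 lower, and in no peak did windows differ in both directions. Scaled by library size only, 52 were higher and 55 lower, with 2 peaks in both directions, as there were without T-bet+ replicate 2. Without T-bet- replicate 1 or 2 the count was 49 or 39. Against cDC1s, 579 windows (16.7%, where 23.0% of all windows were called) differed in T-bet+ cDC2s in 262 peaks, 464 higher and 115 lower, and in 15 of the peaks in both directions. Scaled by library size only, 278 were higher and 167 lower, with 11 peaks in both directions. Without cDC1 replicate 2 these were 284 windows, with 1 peak in both directions.

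**Figure D3:**
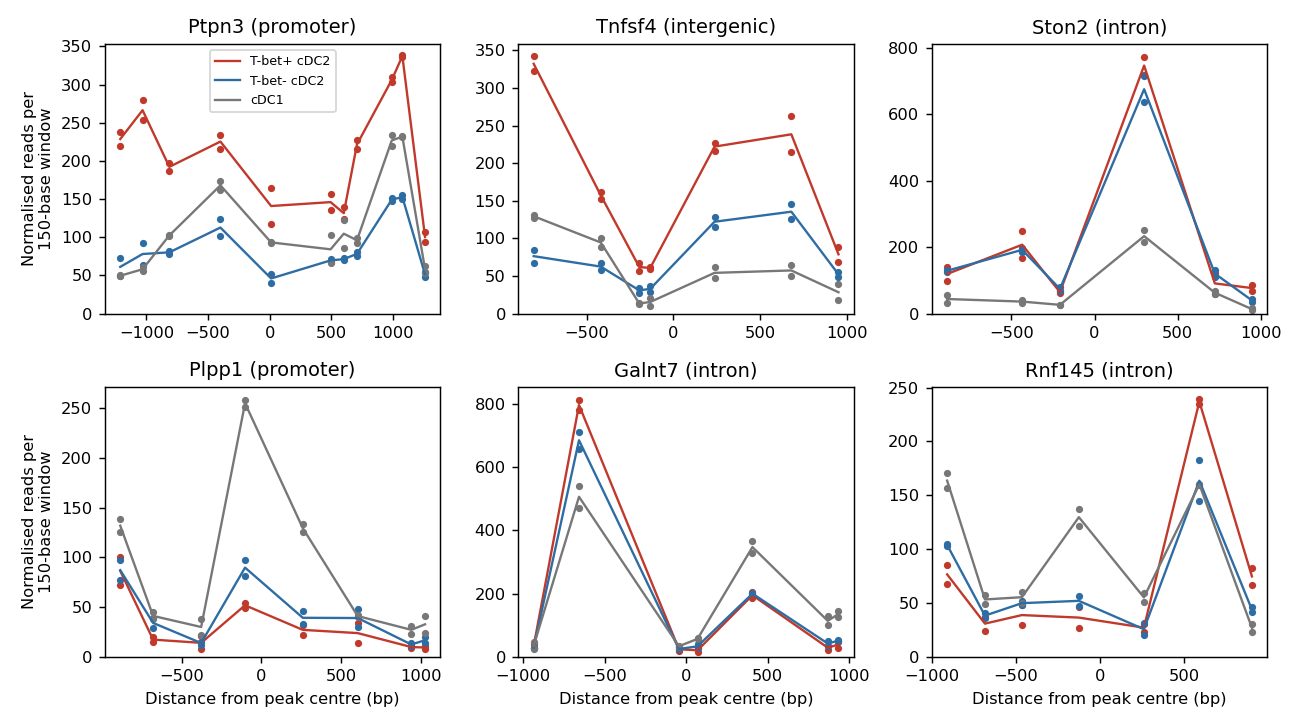
Normalised reads in each 150-base summit window along 6 broad peaks, by distance of the window from the peak centre in bp, with points for the 2 libraries of each subset and lines through their means. *Ptpn3* and *Tnfsf4* are higher in T-bet+ cDC2s and *Ston2* in both cDC2 subsets along most of their length, whereas *Galnt7* and *Rnf145* hold windows above and windows below cDC1s.

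The 5 peaks with the widest spread of window changes between T-bet+ cDC2s and cDC1s lay in *Rnf145*, *Ltbp2*, *Galnt7*, *Sipa1l1* and *Vwa5a*. In the *Galnt7* intron, in a gene for an enzyme of O-linked glycosylation, the window at -657.5 bases from the centre held 712 and 659 reads in T-bet- and 781 and 814 in T-bet+ cDC2s, with 542 and 471 in cDC1s. The window at 868.5 bases held 34 and 51, 22 and 36, and 128 and 99. Log2 fold changes of T-bet+ cDC2s against cDC1s were 0.64 and -1.99, and the whole peak was not called. The *Rnf145* intron peak, in a gene for a ubiquitin ligase, held 47 and 57 reads in T-bet- and 27 and 46 in T-bet+ cDC2s, with 138 and 122 in cDC1s near its centre. At 904.5 bases from the centre it held 41 and 46, 67 and 82, and 30.2 and 23, so that the order of the subsets turned. At the right-hand window of *Galnt7*, the departure from the rest of the peak was -1.86 (adjusted p = 4.5e-05). Calls of windows against the rest of their peak at *Galnt7* and *Rnf145* were lost without single libraries, T-bet+ replicate 1 and cDC1 replicate 1 among them. A further window, chosen after its value was seen and called under every alternative run, lies in the *Xrn2* promoter peak, with 141 and 155 reads in T-bet- and 170.5 and 196 in T-bet+ cDC2s, with 18 and 13 in cDC1s. It stood 2.89 on the log2 scale above the other windows in T-bet+ cDC2s (adjusted p = 3.4e-10).

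Genes that start in broad peaks were expressed at moderate levels. The 374 protein-coding genes with a transcript start in a broad peak had a median of 12.5 TPM over the spleen libraries, against 9.87 TPM for 6155 genes starting in narrower peaks, 12.1 TPM for the 4278 of them in peaks of at least 1000 bp and 0.417 TPM for genes starting in no peak. Fewer were near silence, with 12.0% under 1 TPM against 21.9% for narrower peaks and 16.3% for narrower peaks of at least 1000 bp. Over 100 TPM were 10.2%, 11.0% and 11.3%. The share of tested genes that passed an adjusted p of 0.05 in RNA was 5.32% for broad and 6.81% for narrower peaks between cDC2 subsets, 20.2% against 20.4% between T-bet+ cDC2s and cDC1s and 17.1% against 17.95% between T-bet- cDC2s and cDC1s. Among the 10 widest peaks, *Epha7* RNA was 0 to 13 normalised reads in the 9 libraries and *Tfap4* RNA 7 to 34, while *Smarca2* RNA was 674 to 3771.

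At the peaks that differed between the cDC2 subsets, RNA mostly leaned the same way but few genes passed the test. Of the 10 peaks higher in T-bet+ cDC2s, 8 had a closest gene tested, RNA was higher there at 7 and passed an adjusted p of 0.05 at 1 (1.95% of all genes were higher). Of the 11 lower peaks, 9 had a gene tested, RNA was lower at 8 and passed at 1 (3.44% of all genes were lower). *Ptpn3* RNA was 149, 218 and 114 normalised reads in T-bet+ and 47, 30 and 41 in T-bet- cDC2s, with 15, 8 and 7 in cDC1s. It rose by 2.02 ± 0.44 on the log2 scale between the cDC2 subsets (adjusted p = 0.028, edgeR). That call was lost with the replicate number as a block, with the kind of library as a term (adjusted p = 0.14) and without any single cDC2 library or cDC1 replicate 2, with log2 fold changes of 1.73 to 2.22. *Plpp1* RNA was 9, 5 and 10 reads in T-bet+ and 31, 33 and 56 in T-bet- cDC2s, with 5069, 4473 and 3278 in cDC1s, ranking the subsets as its accessibility did (log2 fold change between cDC2 subsets -2.28 ± 0.37, adjusted p = 0.0077). *Tnfsf4* RNA was 142, 136 and 86 reads in T-bet+ and 17, 35 and 55 in T-bet- cDC2s, with 27, 27 and 37 in cDC1s, which differed by 1.75 ± 0.48 on the log2 scale between T-bet+ and T-bet- (adjusted p = 0.068). *Sgms1* RNA was 2089, 1609 and 1219 in T-bet+ and 3051, 1561 and 2047 in T-bet- cDC2s, which overlapped (log2 fold change -0.44 ± 0.28, adjusted p = 0.46).

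Against cDC1s, RNA passed the test at a minority of genes by higher peaks and at most genes by lower peaks. Of the 94 peaks higher in T-bet+ cDC2s, 81 had a gene tested, of which 19 were higher in RNA (9.97% of all genes were) and 6 lower (8.20% of all genes were), and of the 15 lower peaks 11 had one, of which 6 were lower and 2 higher. Of the 99 peaks higher in T-bet- cDC2s, 86 had a gene tested, of which 15 were higher (9.65% of all genes were) and 5 lower (6.20% of all genes were), and of the 11 lower peaks 6 had one, of which 5 were lower. The 6 genes lower in RNA at higher peaks in T-bet+ cDC2s became 1 or 2 when 1 T-bet+ library, cDC1 replicate 2 or cDC1 replicate 3 was left out, and 9 without T-bet- replicate 3 or with the kind of library as a term. The 2 higher in RNA at lower peaks became 0 when 1 T-bet+ library or cDC1 replicate 2 was left out, and 1 without cDC1 replicate 1. In T-bet- cDC2s the 5 became 1 to 8 as single libraries were left out, fewest without T-bet- replicate 2 or cDC1 replicate 2 and most without T-bet- replicate 3. *Cadm1* RNA was 17370, 17670 and 8101 reads in cDC1s against 249.8, 287 and 883 in T-bet- and 48, 24 and 106 in T-bet+ cDC2s. *Ston2* RNA was 806, 826 and 994 in T-bet+ and 146, 103 and 441 in T-bet- cDC2s, with 93, 71 and 49 in cDC1s, so that the cDC2 subsets did not overlap in RNA as they did in the peak, with a log2 fold change of 1.92 ± 0.51 between them (adjusted p = 0.062). *Tmem132c* RNA was 156, 165 and 141 reads in T-bet+ and 6, 10 and 42 in T-bet- cDC2s and 0 in every cDC1 library, at least 152-fold and 20.9-fold higher than cDC1s against a floor of 3 counts over the cDC1 libraries. *Cadm3* RNA was 219.7, 151 and 228 reads in T-bet+ and 116, 173 and 165 in T-bet- cDC2s and 0.95, 0 and 0 in cDC1s. *Rhobtb1* RNA was 268, 156 and 201 in cDC1s and 1 to 21 in the cDC2 libraries, and *Itpripl1* RNA was 779, 559.8 and 1122 in cDC1s and 96 to 258 in cDC2s.

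**Figure D4:**
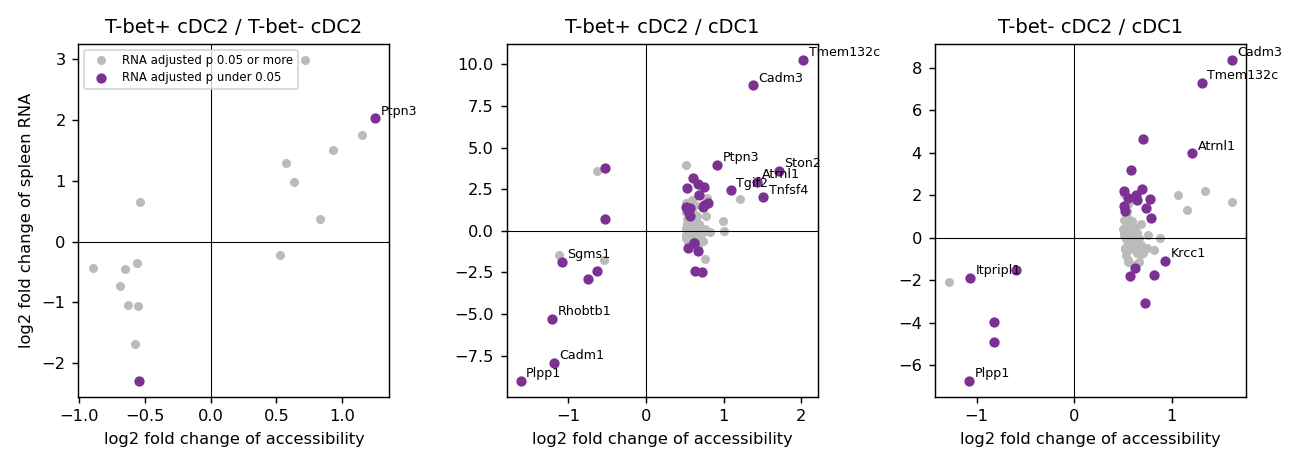
Log2 fold change of spleen RNA of the closest gene against that of accessibility for broad peaks called in each comparison, purple where the RNA passed an adjusted p of 0.05. The vertical axes differ between panels, the heights of *Tmem132c* and *Cadm3* against cDC1s rest on 0 to 0.95 reads in cDC1s and are not bounds, and peaks lower in cDC2s have RNA values that are mostly below 0.

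Few genes of the lists examined had a broad peak, and the lists are too short to set their shares apart from that of all genes. Of all 22946 genes with a peak assigned, 525 (2.29%) had a broad one. None of the 18 transcription factors of the cDC lineage with a peak did, nor any of 10 genes of T-bet+ cDC2s, 13 genes of T-bet- cDC2s or 23 marker genes of other blood cells. Of 12 cDC1 genes only *Cadm1* had one. Of 9 genes of MHC class II presentation, *H2-Ob*, a regulator of peptide loading in B cells, had one, with log2 fold changes of 0.47 between cDC2 subsets and 0.29 against cDC1s in T-bet+ cDC2s, and was not called. Of 24 immediate early and NF-kB response genes, *Egr1* had one, which was higher in T-bet+ cDC2s than in cDC1s (log2 fold change 0.62). Of 18 chemokine genes and receptors *Cxcr4* had one, which was higher in T-bet- cDC2s than in cDC1s (0.52). The *Cxcr4* peak was not called between T-bet+ and T-bet- cDC2s (-0.39). *Cxcr4* RNA was 4899, 5115 and 3223 reads in T-bet- and 1860.0, 2339 and 2368 in T-bet+ cDC2s, with 1700.2, 2163 and 1647 in cDC1s. Of 17 Notch pathway genes *Rbpj*, the transcription factor of that pathway, had one, which was higher in T-bet+ cDC2s than in cDC1s (0.54). The *Rbpj* peak was not called between T-bet+ and T-bet- cDC2s (0.11) or between T-bet- cDC2s and cDC1s (0.42). *Rbpj* RNA was 1082, 1125 and 945 in T-bet+ cDC2s and 1484, 2279 and 2741 in cDC1s. Of 11 housekeeping genes *B2m* and *Ywhaz* had one, and both were called higher in both cDC2 subsets than in cDC1s (median log2 fold changes 0.57 and 0.66).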

How the data were processed

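ATAC-seq was done on 6 spleen libraries (2 for each of 3 subsets) and RNA-seq on 9 spleen libraries (3 for each). Per the labels and the study's methods, the authors aligned ATAC-seq reads to mm10 (GRCm38) with Bowtie2 2.2.5, shifted them by strand for the Tn5 cut, called peaks and summits with MACS2 2.1.1.20160309 on all replicates together, kept peaks reproducible between replicates, and counted reads. The deposited counts per peak and per 150-base summit window, and the deposited counts per gene made after HISAT2 2.1.0 alignment, are whole and not normalised. How reads were assigned to whole peaks is not given in the sources used here. The 7 mesenteric lymph node libraries were not used, and 0 other columns of per-sample values were present.

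Peaks were kept by filterByExpr (73293 of 74217), normalised by TMM and fitted with edgeR 4.0.16 (quasi-likelihood, Benjamini-Hochberg over all peaks) with all 6 libraries and subset as the only term, on 3 residual degrees of freedom. Genes (14377 of 34047) were fitted likewise on 6. Peaks and windows were called at an adjusted p below 0.01 with a log2 fold change beyond 0.5 in either direction, genes at an adjusted p below 0.05. Windows were set against their own peak with diffSpliceDGE. Normalised reads are counts per effective library size scaled to the mean library. Promoter peaks lie within 2000 bases of a GENCODE transcript start, and peaks between genes within 50000 bases of a gene. The RNA given for a peak is that of the closest gene.

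No 2 libraries held identical counts. The study describes the libraries of a subset as biological replicates, with 2 mice pooled per RNA library. Scripts were tested on simulated data. The members and lists were chosen with earlier results of these data known. The result of 1 gene list is not reported here. Named peaks are the 10 widest, the 5 on either side of the cut-off, per comparison the 6 largest changes in each direction among called peaks with a mean of at least 100 normalised reads and no overlap, peaks of the gene lists, and the 5 peaks with windows called in both directions and the widest spread. Alternatives were other widths, scalings, filters, sample sets, DESeq2 1.42.0, a replicate block and the omission of each library.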

Additional observations from a re-analysis of the deposited data

How the results depend on the processing

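Counts of broad peaks called between the cDC2 subsets, in T-bet+ cDC2s against cDC1s and in T-bet- cDC2s against cDC1s were 21, 109 and 110. They were 173, 698 and 663 at a width of 1500 bp or more, 1, 11 and 13 at 2500 bp, 0, 1 and 2 at 3000 bp, and 2, 15 and 13 at an absolute log2 fold change over 1. Scaled by library size only, the counts against cDC1s were 69 and 61. Leaving out 1 library gave 12 to 23, 58 to 141 and 42 to 139, the lone library being assumed to vary like the other groups. The share of reads in broad peaks in T-bet-, T-bet+ and cDC1 libraries was 23.7%, 23.0% and 20.5% at 1500 bp, 0.886%, 0.875% and 0.754% at 2500 bp and 0.0947%, 0.0880% and 0.0757% at 3000 bp, and 4.82% in cDC1s in summit windows, and lay between 5.68% and 6.10%, 5.51% and 5.90%, and 4.91% and 5.29% by single library. Windows that departed from their peak (2, 69 and 24) were 0, 0 and 0 at 3000 bp, where 4 peaks remained, and 0 to 2, 9 to 59 and 3 to 31 with 1 library left out. RNA passed the test at 2 genes of peaks that differed between cDC2 subsets, 4 with DESeq2, 4 with no filter, 1 with the kind of library as a term, 1 for peaks called by DESeq2 and 1 to 3 with 1 library left out. Against cDC1s these were 25 (22 to 26) and 20 (17 to 21).

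With the replicate number as a block, 20, 110 and 108 broad peaks were called, 2, 60 and 19 windows departed from their peak and 1 gene's RNA passed between the cDC2 subsets. Genes lower in RNA at peaks higher than in cDC1s fell from 6 to 2 in T-bet+ and from 5 to 1 in T-bet- cDC2s. Deviations from subset means of libraries with the same number correlated at -0.046, 0.026 and 0.032 over all peaks, -0.543, -0.096 and 0.222 over broad peaks and -0.399 to 0.125 in RNA. Libraries were taken to share only a number. No other pairing was fitted, so the -0.543 between the cDC2 subsets over broad peaks was not modelled further. The offset for GC content, the term for the kind of RNA library, and the alternatives for RNA and windows against cDC1s were chosen after seeing the data. No named peak, window or gene that was called and recomputed under the alternatives turned direction. Values that were not called did turn, such as the RNA of *Tfap4* between cDC2 subsets (log2 fold change -1.14, and 0.51 with the kind of library as a term) and of *Egr1* (0.88 and -0.12). Of the named peaks' values, 644 kept their side of the threshold under other settings, 7 lost and 9 gained the call, and with 1 library left out 371 did, 18 lost and 7 gained it.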
